A study of Mus musculus with 168 samples.

Results

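The genes that make, carry and remove adenosine were followed through hypoxia and reoxygenation in 7 regions of the adult mouse brain. The members asked for were 8 genes, the adenosine receptors Adora1, Adora2a and Adora2b and the handling genes Nt5e, Entpd1, Adk, Ada and Slc29a1, taken at every probe set that the platform annotation gives to that gene alone. This found 14 of the 45037 probe sets tested, covering the 5 handling genes: 3 for Nt5e, 3 for Entpd1, 6 for Adk, 1 for Ada and 1 for Slc29a1. The annotation used here put none of the 3 receptors alone on a probe set, so the receptors are not analysed here. The mice were C57BL/6 males, 8 to 9 weeks old. Controls were sham-treated in room air, while the other mice breathed 8% oxygen for 1 h (H1) or 3 h (H3), or breathed it for 3 h and then room air for 1, 3, 6, 12 or 24 h (R1, R3, R6, R12 and R24). Cerebral cortex, hippocampus, striatum, thalamus, midbrain, pons/medulla and cerebellum were each hybridised to expression arrays, with 3 arrays for each of the 56 combinations of region and time point, taken from 3 mice a time point, so that the 7 regions of a time point share animals. The deposited values are linear intensities. Changes are differences of log2(intensity + 16) from the controls of the same region, a scale that understates the change of dim probe sets.

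Extracellular adenosine is formed from ATP that leaves the cell: Entpd1 (CD39) removes phosphate from ATP and ADP to give AMP, and Nt5e (CD73) turns AMP into adenosine. Slc29a1 (ENT1) is an equilibrative transporter that lets adenosine cross the cell membrane in either direction, so that its level outside the cell depends on enzymes inside. There Adk, adenosine kinase, turns adenosine back into AMP, and Ada, adenosine deaminase, turns it into inosine. Adk is mainly a glial enzyme in the adult brain and sets the tone of adenosine there, while Entpd1 is known from microglia and vessels. Adenosine acts on its receptors to slow neuronal firing and widen vessels, and it rises when oxygen falls. Nt5e is also known as a target of the hypoxia-inducible factor HIF-1.

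The promoters of Nt5e and Adk are shown because Nt5e stood highest in striatum and Adk held a probe set that rose in hypoxia. They were taken from RefSeq (GRCm38.p6) as the 250 bases before each annotated start, written 5′ to 3′ along the gene, with matches to the core HIF motif, ACGTG or GCGTG on either strand, in capitals. Nt5e has 1 annotated start and Adk has 2.
Nt5e, chr9:88327359-88327608, plus strand: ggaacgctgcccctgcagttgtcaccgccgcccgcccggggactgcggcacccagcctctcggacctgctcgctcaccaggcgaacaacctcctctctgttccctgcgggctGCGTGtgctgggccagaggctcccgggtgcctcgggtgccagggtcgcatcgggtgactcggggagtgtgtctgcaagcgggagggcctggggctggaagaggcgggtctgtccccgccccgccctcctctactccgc
Adk, chr14:21052324-21052573, plus strand: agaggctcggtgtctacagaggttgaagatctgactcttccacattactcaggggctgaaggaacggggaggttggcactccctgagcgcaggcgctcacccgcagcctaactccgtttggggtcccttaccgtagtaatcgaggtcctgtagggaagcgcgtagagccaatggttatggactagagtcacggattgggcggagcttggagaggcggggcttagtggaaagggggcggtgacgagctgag
Adk, chr14:21075902-21076151, plus strand: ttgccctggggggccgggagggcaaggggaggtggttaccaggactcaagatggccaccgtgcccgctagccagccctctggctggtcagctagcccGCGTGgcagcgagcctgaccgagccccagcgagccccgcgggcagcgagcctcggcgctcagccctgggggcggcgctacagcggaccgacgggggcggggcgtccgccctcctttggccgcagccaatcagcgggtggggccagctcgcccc
The match in Nt5e began 138 bases before the start, and that in the second Adk promoter 153 bases before it. The first Adk promoter held none. Over the 5 genes, 7 of 14 annotated starts had a match (4 of 8 for Slc29a1, 1 of 2 for Entpd1, 0 of 1 for Ada), and 38.6% of the 32851 mouse starts in the same table had one. A match describes letters in a window and is not a binding site.

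The arrays of a group were alike. Each array's correlation with the mean of the other 2 arrays of its group was 0.9775 or more (median 0.9857), and on each array 23.3% to 30.2% of the values lay under 16. Of 35 region markers, the mean control level was highest in the region named for 32, the exceptions being Neurod6 and Rorb for cortex and Wfs1 for hippocampus. Adk probe sets 1421767_at, 1449641_at and 1446675_at, Nt5e 1422974_at and Entpd1 1450939_at and 1453586_at had mean intensities of 4.99 to 14.7, within that lowest range. All results below are on bulk tissue, in which fewer cells of a type and less RNA per cell cannot be told apart.

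In control brain every handling gene but Ada had a probe set that differed between regions. Their orders differed, although Nt5e and Entpd1 were both highest in striatum. Of the 14 probe sets, 8 differed between the 7 regions (limma F-test, adjusted p below 0.05), against 41.4% of all probe sets, and they belonged to 4 of the 5 genes, Ada being the one without. Several of the 14 read the same gene, and whether their share exceeds that of all probe sets was not tested. The median span from the lowest to the highest region was 0.74 on the log2 scale over the 14 probe sets and 0.53 over all probe sets.

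Nt5e, the enzyme that releases adenosine from AMP, was set apart by the striatum. At its brightest probe set, 1428547_at, the 3 striatal control arrays read 96.2, 112 and 122. The cerebellum, next in order, read 51.1, 47.8 and 53.9, pons/medulla 46.8, 57.3 and 33.9, midbrain 41.3, 38.0 and 35.9, and hippocampus 35.1, 34.2 and 45.3. Cortex read 32.8, 27.1 and 42.3 and thalamus 22.8, 43.1 and 37.1. All striatal arrays lay above all arrays of the other 6 regions. The striatum exceeded the cerebellum by 0.91 (95% interval 0.58 to 1.24, adjusted p = 0.000219) and the thalamus by 1.34 (1.01 to 1.68, adjusted p = 5.65e-06) on the log2 scale. It was above each of the 6 regions at an adjusted p below 0.05, and 18.5% of all single comparisons of a probe set between striatum and another region passed in either direction. No other neighbours in the order differed, with adjusted p-values of 0.644 to 0.995.

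Striatum also had the highest Nt5e levels through the time course. Over all 24 arrays of each region, the striatum ran from 91.1 to 198 with a median of 122, and the highest array of any other region was 77.2, in cerebellum. The dimmest Nt5e probe set, 1422974_at, was also highest in striatum, with 35.7, 19.8 and 58.6 in controls against 13.2, 18.0 and 11.9 in pons/medulla (difference 0.77, adjusted p = 0.0108). The remaining one, 1459023_at, did not differ between regions (adjusted p = 0.422). The summed level of 8 markers of striatal projection neurons was 15850 in striatum and 1155 to 2017 in the other 6 regions, and the part of those cells in the Nt5e level was not tested. Across the 56 group means, the genes most like Nt5e 1428547_at were Htr1b (Pearson r = 0.897), Vrk1 (0.896) and Dach1 (0.895), out of 11346 genes measured above the median. The points share regions and arrays, so these values only describe the likeness.

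Entpd1, the step before Nt5e, ran from striatum at the top to cerebellum at the bottom at all 3 of its probe sets. At the brightest, 1423326_at, controls read 60.7, 70.0 and 71.9 in striatum and 35.8, 41.8 and 42.8 in cerebellum, a difference of 0.57 (95% interval 0.36 to 0.79, adjusted p = 0.000287). Striatum could not be told from midbrain, next in order (difference 0.22, limma adjusted p = 0.158), and their arrays overlapped. The 5 regions between striatum and cerebellum had means of 53.1 to 55.9. They could not be told from each other at neighbouring places (adjusted p of 0.968 to 0.977). Cerebellum was below every one of them, with adjusted p-values of 0.0156 to 0.038, and 25.2% of all single comparisons of a probe set between cerebellum and another region passed. The dimmer 1450939_at gave the same ends of the order with a wider gap. It read 37.3, 29.2 and 27.6 in striatum against 0.643, 1.94 and 1.13 in cerebellum, a difference of 1.45 (adjusted p = 2.43e-08), although the cerebellar values are near the floor of the array. At the dimmest, 1453586_at, no step between neighbours passed (limma adjusted p of 0.339 to 0.85). Microglia markers had the same ends. The summed level of 6 of them was 2613 to 2942 over the striatal control arrays and 811 to 943 over the cerebellar ones. The other regions lay at 1712 to 2343, in another order than 1423326_at, with means of 2273 in cortex, 2129 in hippocampus and 1777 in thalamus. Markers of endothelium, 7 genes, had other ends, 1139 in pons/medulla and 850 in hippocampus, with 926 in striatum and 891 in cerebellum. The part of microglia or endothelium in the Entpd1 order was not tested.

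Slc29a1, the adenosine transporter, was highest in thalamus. Its probe set 1451782_a_at read 184, 210 and 221 there, 145, 142 and 128 in midbrain, 118, 110 and 138 in cerebellum, and 115, 101 and 103 in pons/medulla. Striatum read 117, 74.1 and 120, hippocampus 76.8, 62.7 and 73.9, and cortex 64.0, 56.9 and 89.9. The thalamic arrays lay above all others. Thalamus exceeded cortex by 1.37 (95% interval 1.06 to 1.69, adjusted p = 2.18e-06), and it also exceeded hippocampus, striatum, pons/medulla and cerebellum (adjusted p of 3.12e-06 to 0.00223), and 13.4% of all single comparisons of a probe set between thalamus and another region passed. Its excess over midbrain, 0.52, did not pass (adjusted p = 0.0748), nor did any other step between neighbours in the order. Over all 24 arrays per region, thalamus ran from 184 to 247 and midbrain, next, from 98.8 to 187. The genes most like it over the 56 group means were Syt9 (r = 0.902), Vav3 (0.900) and Prkcd (0.895).

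Adk, which clears adenosine inside the cell, ran from brainstem to striatum at its 2 bright probe sets. The order from high to low was pons/medulla, midbrain, thalamus, cerebellum, hippocampus, cortex and striatum at both bright probe sets, 1438292_x_at and 1416319_at. At 1438292_x_at, pons/medulla read 1121, 1304 and 1289 and striatum 715, 762 and 692, a difference of 0.76 (95% interval 0.57 to 0.96, adjusted p = 5.82e-06). At 1416319_at, pons/medulla read 276, 254 and 290.4 against 157, 126 and 147 in striatum, with the 7 regions spanning 0.86. Steps between neighbours passed at different places at the 2 probe sets. Thalamus exceeded cerebellum by 0.34 at 1438292_x_at (adjusted p = 0.0117), and by 0.25 at 1416319_at, where it missed the threshold (adjusted p = 0.0728). Pons/medulla, midbrain and thalamus did not differ from each other beyond their spread at neighbouring places, and neither did cerebellum and hippocampus at 1438292_x_at, hippocampus and cortex, or cortex and striatum. At 1416319_at cerebellum exceeded hippocampus by 0.28 (adjusted p = 0.0444). The dimmer Adk probe sets did not pass the limma F-test over regions (adjusted p of 0.0566 to 0.573). Of these, 1421767_at and 1446675_at were also highest in pons/medulla. The others had different ends: 1446068_at was highest in thalamus and lowest in midbrain, and 1449641_at was highest in striatum and lowest in cerebellum. The summed level of 6 astrocyte markers had the same ends, 9111 in pons/medulla and 7797 in striatum, but another order between them. It was 8938 in hippocampus, 8589 in midbrain, 8543 in cerebellum, 8100 in cortex and 7806 in thalamus, and the part of astrocytes in the Adk levels was not tested.

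Ada, which deaminates adenosine, was dim, and its regions were closer together. Its controls ran from 8.66, 20.2 and 16.7 in cortex to 32.5, 23.4 and 32.1 in midbrain. The F-test over regions did not pass (adjusted p = 0.106), while 2 of the 21 pairs did, cortex being below midbrain by 0.55 (adjusted p = 0.0237) and below pons/medulla by 0.50 (adjusted p = 0.0346), against 17.1% of all single comparisons of a probe set between a pair of regions.

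**Figure D1:**
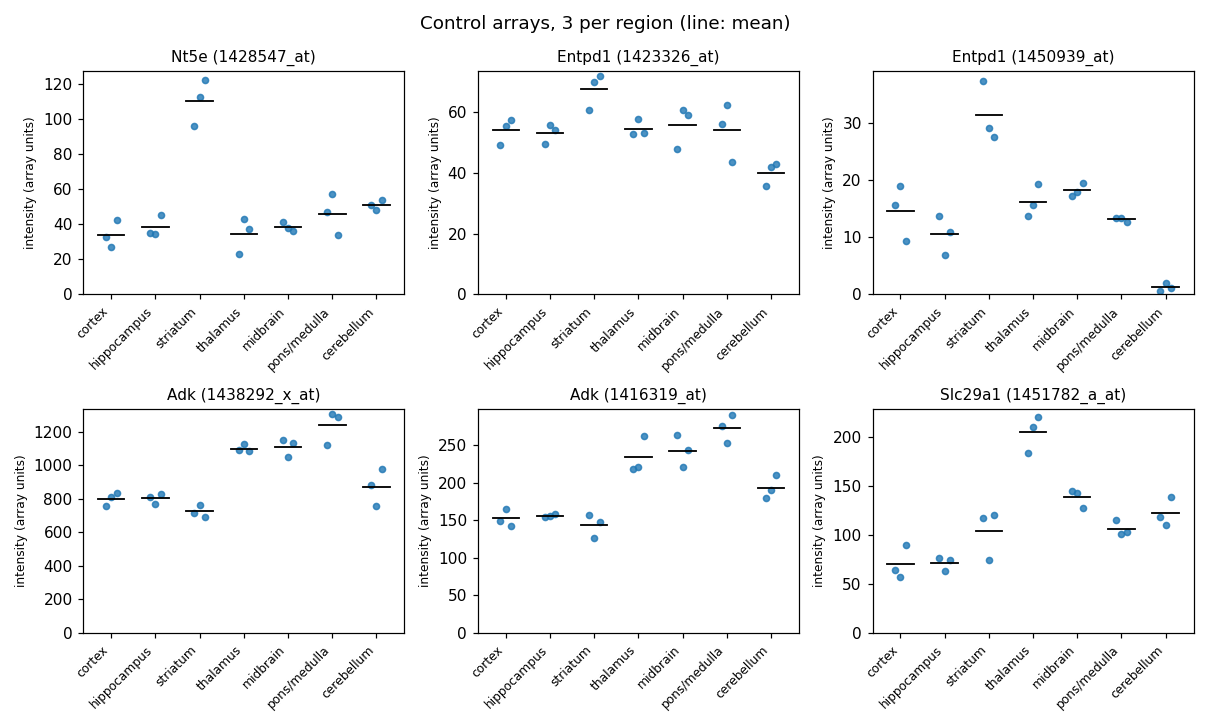
Control intensities (array units, linear axis from 0) by region for 6 probe sets of Nt5e, Entpd1, Adk and Slc29a1. Each point is 1 of 3 arrays and each line their mean; Nt5e stands out in striatum (96.2 to 122) and Slc29a1 in thalamus (184 to 221), while both Adk probe sets peak in pons/medulla and Entpd1 is lowest in cerebellum.

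Against controls, hypoxia and reoxygenation gave 1 call in this set. Over 7 regions, 7 time points and 14 probe sets there were 686 comparisons with controls, and 1 passed (limma, adjusted p below 0.05), an Adk probe set in cerebellum at H3, against 0.108% of all probe set comparisons. An unadjusted p below 0.05 was found in 71 of the 686, or 10.3%, against 6.3% of all comparisons. Of the 71, 22 came from that single probe set and 13 from Adk 1446675_at, which reads under 16 on 95.8% of arrays. The median change over the 686 was 0.019, and over all probe sets it lay between -0.014 and 0.0078 at each time point. No probe set of the 14 passed the F-test over the time course in any region (smallest adjusted p = 0.108, Ada in hippocampus), which 0.96% of all tests did. The comparisons within a region share their 3 control arrays.

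The probe set that rose was Adk 1446068_at, a dim one. In cerebellum it read 17.6, 22.5 and 15.99 in controls and 39.8, 46.2 and 42.9 at H3, so that the groups did not overlap. The means differed 2.3-fold in intensity, and the change was 0.77 (SE 0.15, 95% interval 0.45 to 1.09, adjusted p = 0.0174). In cerebellum at H3, 0.948% of all probe sets passed in either direction and 0.415% rose. The call was kept without control replicate 2 (adjusted p = 0.0365) or H3 replicate 1 (0.0405) and was lost without control replicate 1 (adjusted p = 0.0631) or 3 (0.0773), without H3 replicate 2 (0.0869) or 3 (0.0656), and with only the 6 arrays of the 2 groups fitted (0.103). The change stayed between 0.71 and 0.85 in these fits.

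All 7 regions had a higher mean at H3 than in controls at this probe set. In cortex it read 20.3, 22.4 and 9.90 in controls and 42.9, 36.9 and 30.0 at H3. Hippocampus went from 24.4, 21.4 and 20.2 to 30.3, 33.9 and 47.5, and striatum from 25.2, 26.9 and 26.4 to 50.3, 37.0 and 46.1. Midbrain went from 8.27, 25.4 and 13.8 to 31.1, 48.3 and 33.9. In these 4 regions and cerebellum all H3 arrays lay above all controls, an outcome found in 5.46% of all single comparisons of a probe set with controls in one region at H3. Pons/medulla, with 24.1, 19.9 and 15.8 in controls and 22.2, 41.7 and 41.7 at H3, overlapped. Thalamus overlapped as well: its controls, 45.1, 38.4 and 22.1, had the highest mean of any region, and its H3 arrays read 30.4, 52.0 and 32.4, a change of 0.09. Differences between regions in the change at H3 did not pass at this probe set (adjusted p = 1). Over the 98 such tests at the 14 probe sets and 7 time points none passed, against 0.0241% of all such tests, with 9 at an unadjusted p below 0.05 and a smallest adjusted p of 0.6.

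**Figure D2:**
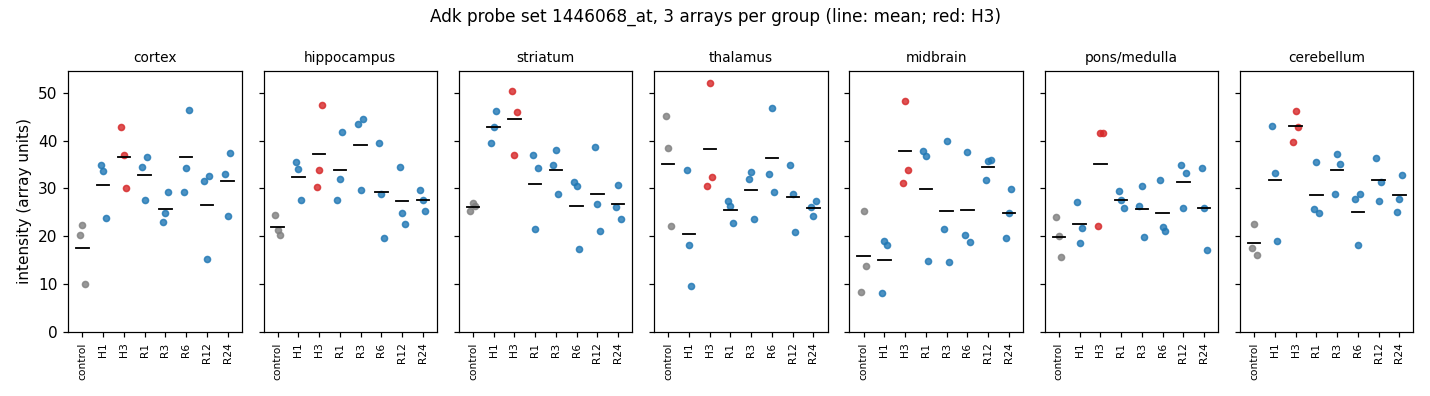
Intensity of Adk probe set 1446068_at (array units, linear axis from 0) by time point in each of the 7 regions, with each point 1 array and each line the mean of 3. The H3 arrays, in red, lie above the grey controls without overlap in 5 of the 7 regions, and thalamus has the highest controls (22.1 to 45.1).

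Averaged over the 7 regions, the rise of Adk 1446068_at at H3 was 0.54 (SE 0.083, 95% interval 0.37 to 0.71, adjusted p = 0.000502). The 3 control averages were 5.26, 5.35 and 5.06 on the log2 scale, and the 3 H3 averages 5.66, 5.86 and 5.78. It was the only call among 98 tests of the 14 probe sets in the average, against 1.4% of all tests over the 7 time points. At H3, 3.36% of all probe sets passed and 1.2% rose. At H1 the change was 0.19 (adjusted p = 0.614), with 5 of 7 regions higher and a range from -0.51 in thalamus to 0.49 in cortex. The F-test for differences between regions in the change at H1 had an unadjusted p of 0.00195 (adjusted p = 0.756). At later times the averages stayed above the controls without passing in the main fit. At R1 and R3 they passed when arrays of the same number formed a block. The change was 0.28 at R1 (adjusted p = 0.0541), 0.29 at R3 (0.118), 0.25 at R6 (0.486), 0.28 at R12 (0.308) and 0.20 at R24 (0.85). The change at R1 passed with quantile normalization (adjusted p = 0.0129) or median centring (0.0115). At H3 and at each of these times all 3 averages lay above all 3 controls, an outcome found in 6.71% of all single comparisons of a probe set with controls at one of these times. All these comparisons share the same 3 control averages, so they are not separate evidence, and the share applies to a single one. Thalamus alone went the other way at R1 (-0.28), R3 (-0.14), R12 (-0.20) and R24 (-0.26), where the other 6 regions were higher.

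At the 2 bright Adk probe sets no such rise was called. In the average at H3, 1438292_x_at changed by 0.03 (95% interval -0.06 to 0.12) and 1416319_at by -0.0012 (-0.08 to 0.08), intervals that do not meet the 0.37 to 0.71 of 1446068_at. Single regions gave the same picture: at H3 the changes of 1438292_x_at ran from -0.07 in thalamus to 0.18 in cerebellum, and those of 1416319_at from -0.05 in pons/medulla to 0.06 in cerebellum. In none of their 98 region and time comparisons did the unadjusted p fall below 0.05. The remaining 3 Adk probe sets, all with mean intensities under 13, changed by -0.01 (1421767_at), 0.15 (1449641_at) and -0.09 (1446675_at) at H3 in the average, with adjusted p-values of 0.346 to 0.99. The rise was thus called at 1 of the 6 Adk probe sets, and the stretch of the gene that each probe set reads is not given in the sources used here.

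**Figure D3:**
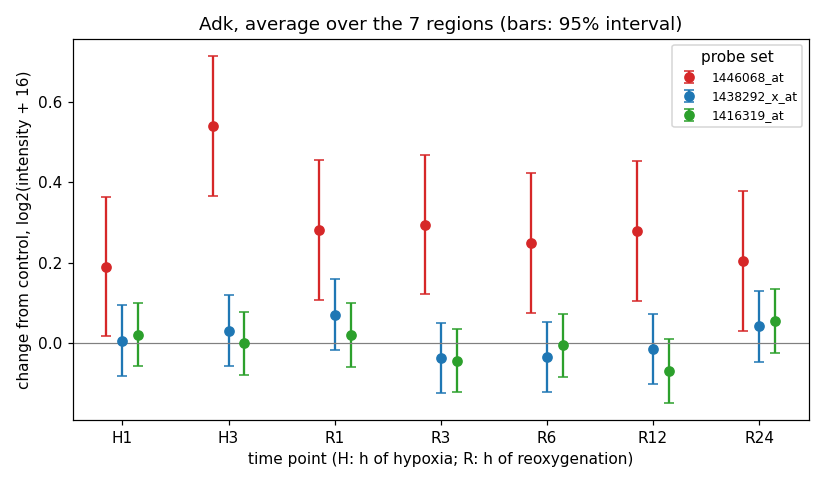
Change from control in the average over the 7 regions, on the log2(intensity + 16) scale, for 3 Adk probe sets at 7 time points, with 95% intervals. 1446068_at (red) reaches 0.54 at H3 and reads 0.20 to 0.29 from R1 to R24, none of which passes in the main fit, while 1438292_x_at and 1416319_at lie near 0 at H3. All time points of a probe set are compared with the same controls.

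Nt5e read higher in the first hours of reoxygenation in some regions, without passing over all probe sets. The study listed this gene, at 1428547_at, among verified HIF-1α targets that it found regulated by hypoxia in these same samples. Its direction here is therefore not independent evidence. The study's call rested on another normalization (GCRMA) and a one-way ANOVA, in part after a filter on the size of change. A one-way test on the values used here passed at no member probe set. In striatum, where 1428547_at is bright, controls read 96.2, 112 and 122. H3 arrays read 126, 140 and 136, R1 arrays 188, 130.1 and 137, and R3 arrays 198, 142 and 139.6, all above the controls, an outcome found in 6.11% of all single comparisons of a probe set at one of these times, and R12 arrays read 91.1, 91.7 and 117. The change was 0.25 at H3 (adjusted p = 0.765), 0.40 at R1 (95% interval 0.10 to 0.69, adjusted p = 0.315) and 0.47 at R3 (0.17 to 0.76, adjusted p = 0.458). In cerebellum R1 read 77.2, 55.96 and 77.1 against 51.1, 47.8 and 53.9 in controls (change 0.35, adjusted p = 0.239). In midbrain R3 read 66.9, 61.7 and 45.4 against 41.3, 38.0 and 35.9 (change 0.43, adjusted p = 0.548).

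The dim Nt5e probe set 1422974_at was also highest at R1 and R3 in striatum. It read 35.7, 19.8 and 58.6 in controls, 111, 70.5 and 77.6 at R1 and 114, 100.2 and 61.5 at R3, changes of 0.96 (adjusted p = 0.337) and 1.03 (0.59). In the average over regions, 1428547_at changed by 0.18 at R1 (95% interval 0.04 to 0.32, adjusted p = 0.138) and 0.20 at R3 (0.06 to 0.33, adjusted p = 0.209), and 1422974_at by 0.22 at R1 (adjusted p = 0.121). At R1 6 of 7 regions were higher at 1428547_at, the exception being hippocampus at -0.04, and without replicate 1 the average change was 0.11. Without striatum the average change of 1422974_at at R1 was 0.09 in place of 0.22, and its median over regions was 0.05. The remaining probe set, 1459023_at, changed by 0.02 at R1 (adjusted p = 0.958) and -0.05 at R3 (0.922) in the average. At R24 its average change was -0.32 (adjusted p = 0.819), with striatum reading 5.83, 5.70 and 8.89 against 21.8, 23.4 and 28.8 in controls (-0.83, adjusted p = 0.892). These R24 readings lie under 16, at the dim end of the arrays, as do 46.4% of all readings of this probe set.

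**Figure D4:**
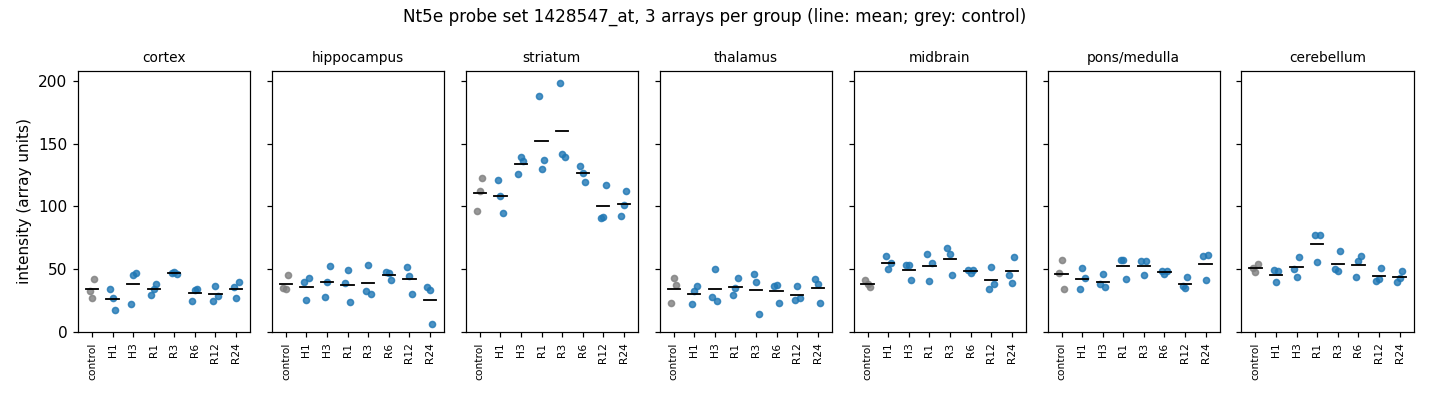
Intensity of Nt5e probe set 1428547_at (array units, linear axis from 0) by time point in each region, with each point 1 array and each line the mean of 3. All striatal arrays lie at 91.1 or above, the other 6 regions at 77.2 or below, and the striatal R1 and R3 arrays (130.1 to 198) lie above the striatal controls (96.2 to 122).

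The other handling genes did not pass at any time in any region or in the average. Ada was higher at R1 in 7 of 7 regions, by 0.04 in striatum to 0.45 in cortex, and its average change there was 0.26 (95% interval 0.04 to 0.48, adjusted p = 0.179). At R12 it was lower in 6 of 7 regions, with an average of -0.23 (-0.45 to -0.01, adjusted p = 0.507). Slc29a1 was higher at H3 in 6 of 7 regions, by up to 0.24 in cortex, and its average change was 0.13 (-0.02 to 0.28, adjusted p = 0.464), falling to 0.05 without replicate 2 and reaching 0.20 without replicate 3. In thalamus, where it is brightest, it read 222, 247 and 228 at H3 against 184, 210 and 221 in controls, all 3 above, as for 5.76% of all probe sets, with a change of 0.17 (adjusted p = 0.736). Entpd1 1423326_at was lower at R1 in 6 of 7 regions, with an average of -0.12 (-0.27 to 0.03, adjusted p = 0.404), which was -0.05 without replicate 2 and -0.18 without replicate 1. Its other probe sets changed the other way in the average, by 0.05 (1450939_at, adjusted p = 0.819) and 0.06 (1453586_at, 0.812).

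**Figure D5:**
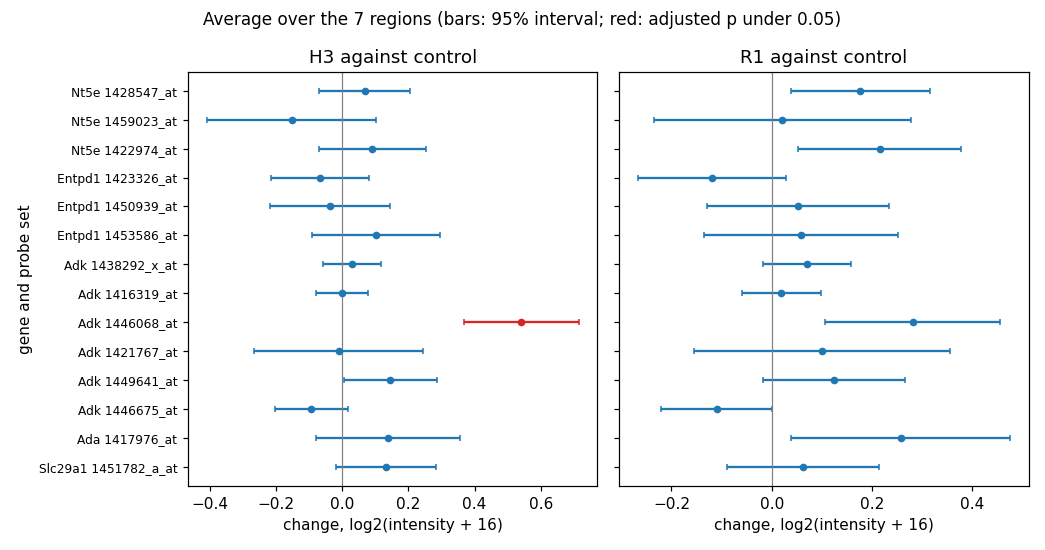
Average change over the 7 regions at H3 (left) and R1 (right) for the 14 probe sets, on the log2(intensity + 16) scale, with 95% intervals. At H3 Adk 1446068_at, in red, is the 1 probe set with an adjusted p below 0.05, at 0.54, and at R1 none passes.

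Among other genes of the pathway, changes were called at 1 h of reoxygenation. A further 44 genes of purine metabolism, nucleoside transport, ATP release and purine receptors were read at their brightest probe set. In single regions none passed in 2156 comparisons (limma, 151 at an unadjusted p below 0.05), with a median change of 0.0049. The 151 are 7% of the comparisons, against 6.3% over all probe sets, and 0.108% of all comparisons passed. In the average over regions 6 passed at R1, where 5.48% of all probe sets passed, and none at the other times. The shares over all probe sets include dim ones, while the 44 genes were read at their brightest, so the sets are not alike. The 6 genes are named after their values were seen.

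Inside the cell, Pnp, purine nucleoside phosphorylase, which takes inosine on to hypoxanthine, fell by 0.40 (SE 0.060, adjusted p = 0.000358) and was lower in all 7 regions, from -0.16 in cerebellum to -0.55 in hippocampus. Ampd3, an AMP deaminase that draws AMP away from adenosine, fell by 0.22 (adjusted p = 0.00263) and was also lower in 7 of 7 regions. Nt5c3, a cytosolic nucleotidase, rose by 0.20 (adjusted p = 0.0316), higher in 7 of 7, and whether it acts on AMP was not tested. The other 13 intracellular genes did not pass. Slc29a2 (ENT2), the second equilibrative transporter, fell by 0.19 (adjusted p = 0.0234) and was lower in 6 of 7 regions, while the other 3 transporters did not pass. Of 14 receptors for extracellular nucleotides, P2ry13, an ADP receptor found on microglia, fell by 0.29 (adjusted p = 0.00148) in 7 of 7 regions and P2ry14, the UDP-glucose receptor, rose by 0.22 (adjusted p = 0.0194) in 7 of 7. For the 3 genes of ATP release and the 6 further genes of extracellular nucleotide breakdown none passed. Pnp has a near-identical copy in the mouse genome that its probe set may also read. Of these 6 calls, Pnp was kept when each replicate was left out in turn (adjusted p of 0.0114 to 0.0358), and Ampd3 and P2ry13 were kept without replicate 3 (0.0314 and 0.00733) and lost without replicate 1 (0.122 and 0.14) or 2 (0.0973 and 0.0805). Slc29a2 (0.132 to 0.222), Nt5c3 (0.0585 to 0.328) and P2ry14 (0.115 to 0.213) were lost without any one replicate.

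The remaining adenosine receptor, Adora3, was measured at 1 dim probe set. Its controls read 7.72 to 48.1 over the 7 regions, its changes ran from -0.47 in striatum at R1 to 0.45 in cortex at R6, and in none of 49 comparisons did the unadjusted p fall below 0.05.

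Cell type markers were read beside these changes. In the average at H3 and at R1 no gene of the lists for neurons, astrocytes, oligodendrocytes, microglia, endothelium, meninges, choroid plexus or the regions passed. In single regions at these times 2 of 1078 marker comparisons passed, both at R1: Gpr6, a receptor of striatal projection neurons, fell by 0.62 in striatum (limma adjusted p = 0.00701), and En2, a cerebellar transcription factor, fell by 0.41 in cerebellum (0.0435). At H3 the median change of the choroid plexus markers ran from -0.70 to 0.60 over the regions, with none called. In cerebellum, where the Adk call lay, all 6 had a positive change, with a median of 0.60 and a summed level of 546 to 5126 in controls and 2736 to 5682 at H3. In pons/medulla, at the other end, 0 of 6 were positive, and the part of choroid plexus in the Adk change was not tested. In the average at H3 the median change of the 6 microglia markers was 0.041 and that of the 6 astrocyte markers -0.032. At R1, where P2ry13 fell, the microglia median was 0.093.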

How the data were processed

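RNA from 7 brain regions was measured on Affymetrix mouse arrays, 3 arrays for each region and time point. The authors deposited 1 table of linear intensity values, and the submitters' processing notes name GCOS 1.3. All arrays have a trimmed mean of 125, and no further normalization shows in the values. Probe sets were named through the platform annotation (34945 with 1 gene, 932 with several, 9160 with none), with symbols updated through RefSeq. Values were analysed as log2(intensity + 16) over 45037 probe sets in limma 3.58.1 (R 4.3.3), with Benjamini-Hochberg adjustment over all of them and a threshold of 0.05. Each region was fitted on its 24 arrays. The average over regions took, for each time point, the mean of same-numbered arrays. In fits across regions, arrays sharing a time point and number formed a random block (consensus correlation 0.0398 for controls and 0.0369 for differences between regions in the change). Per the methods each time point had 3 mice, so tests between regions compare tissue of the same animals. The labels do not say that arrays of a number come from 1 mouse, so neither the block nor the average is known to follow the animal. The study's methods name a one-way test with a t-test after it, which was run as an alternative.

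The fits were tested on simulated data with 200 changed probe sets, 50 for each fold, among 45037. In the average at H3, 48% of the 1.2-fold and 100% of the 1.5-fold changes were recovered, and in single regions at H3 24% to 34% of the 1.5-fold and 74% to 84% of the 2-fold changes. For differences between regions in the change at H3, with cerebellum alone changed, recovery was 0% at 1.2-fold, 18% at 1.5-fold and 72% at 2-fold. The simulated arrays had independent noise and shared no animals, so the shares for the average may be too high for the real arrays.

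The members, gene lists and the rule for named genes were chosen with earlier results of these data known. The rule names every member, the 8 largest calls of the other pathway genes in single regions (there were none), Adora3, and the 3 genes most like a member whose brightest probe set spans 1 or more on the log2 scale over control regions. The array files name no genome build, so promoter coordinates are those of the RefSeq table. The number of arrays limits the precision.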

Additional observations from a re-analysis of the deposited data

How the results depend on the processing

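The rise of Adk 1446068_at at H3 in the average over regions kept its direction and stayed called in all 17 alternatives that tested it (0.40 to 0.84 on the log2 scale, adjusted p of 1.01e-07 to 0.033), leaving out any replicate or any region included, and it left the test when only probe sets above the median intensity were used. In cerebellum at H3 it was called in 8 of 16 alternatives (0.57 to 1.17). There it was lost without replicate 1 (adjusted p = 0.155), 2 (0.27) or 3 (0.186) of every group, which leaves 2 arrays a group. The number of calls among the 14 probe sets in single regions was 1 and became 0 with the probe sets above the median intensity, with only the 2 groups compared and with the methods' t-test after adjustment (46 of 686 comparisons at an unadjusted p below 0.05), and it was 0 to 1 when a replicate, or a control replicate, was left out. In the average the number of calls, 1, became 0 with the probe sets above the median intensity, 2 with quantile normalization (adding Adk 1446068_at at R1, adjusted p = 0.0129), 3 with median centring (adding the same at R1, 0.0115, and Nt5e 1422974_at at R1, 0.0476) and 5 with all arrays in 1 fit (adding Ada at R1, 0.0441, and Adk 1446068_at at R1, R3 and R12, 0.011 to 0.047). Without thalamus, Adk 1446068_at was also called at R1 (limma adjusted p = 0.00412) and R3 (0.023). Thalamus was the region that went the other way at R1 (-0.28) and R3 (-0.14), so leaving it out had to raise the average. When any other single region was left out, this probe set was called at H3 only. Control differences between regions numbered 8 and became 5 with the probe sets above the median intensity, where 5 of the 14 are tested, and 6 to 8 without a replicate. That of Entpd1 1423326_at was lost without replicate 1 (limma F-test adjusted p = 0.101), 2 (0.193) or 3 (0.0875). Differences between regions in the change numbered 0 to 1 without a replicate, the 1 being Adk 1446675_at at H3 without replicate 3 (adjusted p = 0.0351). For the 44 other pathway genes in single regions, 0 calls became 2 with a pseudocount of 32, 2 with trend and robust fitting, 6 with the probe sets above the median intensity, and 0 to 2 without a replicate or a control replicate, among them Pnp at R1 in up to 4 regions. In the average their 6 calls became 1 to 3 without a replicate and 10 with all arrays in 1 fit. Slc29a2 was lost with quantile normalization (adjusted p = 0.14) and median centring (0.153). The cause of these shifts was not tested. On each array 23.3% to 30.2% of the values lie at its dim end (under 16), which limits what 1421767_at, 1449641_at and 1446675_at of Adk can show.

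Arrays with the same replicate number deviated together only weakly within a region. The median r was 0.0563 to 0.11 over pairs of time points, with the lowest pair at -0.129. The numbers were therefore not taken to pair the arrays. Most arrays, 158 in all, still correlated best with arrays of their own number. Arrays of a number thus shared a weak but widespread deviation, which the main single-region and average fits do not model. Its source was not tested. With the replicate block the single-region calls of the 14 probe sets stayed at 1, while the time course gave 1 call in place of 0 (Nt5e 1428547_at in cerebellum, adjusted p = 0.0413), the average gave 3 in place of 1 (adding Adk 1446068_at at R1, 0.0219, and R3, 0.0484), and the other pathway genes gave 2 in place of 0 (Pnp at R1 in cortex, 0.0271, and midbrain, 0.0442) in single regions and 9 in place of 6 in the average. Control differences between regions were 8 with and without the block, and differences in the change 0 with and without it.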
